A study of Mus musculus with 4 samples.

Results

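The globin genes of the mouse were read in RNA of cultured AGM explants (aorta, gonad and mesonephros), the part of the embryo in which blood stem cells arise. The 7 genes were chosen by symbol, 3 embryonic (Hba-x, Hbb-y and Hbb-bh1) and 4 adult-type (Hba-a1, Hba-a2, Hbb-bs and Hbb-bt), out of 49997 gene rows in each deposited count table. All 7 were present in the tables and all 7 passed the filter on low counts. Between explants kept with and without CCCP, no globin passed the test over all genes. Transcripts of the 3 alpha-type globins were higher in both CCCP libraries than in both untreated libraries, while those of the 4 beta-type globins overlapped between the groups. Of all genes tested, 24.0% were higher in both CCCP libraries and 48.8% did not overlap in either direction, so 3 of 7 without overlap is near the background. Embryonic chains made up 82.1% to 87.9% of globin counts per kb of exon in the 4 libraries. The gap between the groups was -0.40 percentage points, and that between replicates 2 and 1 within the groups was 5.02 and 5.78 points. Reads shared by the adult copies were not counted, so the adult part is understated. Per 50-base stretch found in no other gene, chosen after seeing the data, the mean embryonic share was 64.1% untreated and 63.1% with CCCP.

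Haemoglobin is a tetramer that joins a pair of alpha-type chains with a pair of beta-type chains, each holding a haem group that binds oxygen. The first red cells of the mouse embryo, the primitive erythrocytes of the yolk sac, enter the circulation early and carry the embryonic chains zeta (Hba-x), epsilon-y (Hbb-y) and beta-h1 (Hbb-bh1), together with alpha chains. As primitive cells mature in the bloodstream, their beta-type output shifts from Hbb-bh1 towards Hbb-y. Definitive red cells, made in the fetal liver and later in the marrow, carry alpha with the adult beta chains.

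The design compared 2 untreated explant libraries with 2 libraries of explants held in 5 µM CCCP throughout the 48 hours of culture on membrane filters. CCCP is an uncoupler that lets protons leak across the inner membrane of mitochondria. All 4 libraries came from C57BL/6J tissue in MyeloCult medium with hydrocortisone, which the controls received too. The culture protocol names embryos of E10.5 and E11.5 and the series design E10.5 alone, and no label gives the age of a library, so age, pooling of embryos and number of embryos per library were not analysed here. The labels call the cells embryonic HSCs and the series design speaks of c-kit+ cells, whereas the extraction text describes RNA of AGM explants. Nothing in the labels says that the replicates were separate cultures, so p-values measure only the spread between these samples, which may be technical.

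Depth was alike between the groups. Library totals ran from 37360968 to 48827826 counts, and replicate 1 was the deeper in each group. The 7 globins together held 0.271% and 0.323% of all counts in untreated replicates 1 and 2 and 0.294% and 0.477% in CCCP replicates 1 and 2. The 8 endothelial markers summed to 475 to 621 CPM per library (counts scaled to library size, here with TMM factors), and the 10 stem and progenitor markers to 168 to 213 CPM. Sums over different gene sets do not measure cell numbers, and which cells the RNA came from was not tested. Of the 10 listed erythroid markers 9 were used here, and all 9 passed the filter on low counts. Hepatic markers moved with the groups: 8 of 8 were lower in both CCCP libraries, against 24.8% of all genes tested, and their summed level was 1395 and 831 CPM in the untreated libraries against 3.81 and 64.5 CPM in CCCP replicates 1 and 2, and Fga, 1 of the 8, was at 0 in CCCP replicate 1. Adjusted p-values in edgeR were 0.133 to 0.229, and DESeq2 called 5 of the 8, against 3.32% of all genes in either direction. The liver of the embryo is a site of red cell formation, and the part of this difference in the globin values was not tested. The data are of bulk tissue, so the number of red cells and the globin RNA per red cell cannot be told apart.

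The coding sequences are shown first, because they decide which globin reads can be assigned to a gene. Each line gives the first 90 coding bases from the ATG, taken from the GENCODE M21 transcripts (GRCm38, the assembly of mm10), in lower case. Capitals mark bases that differ from Hba-a1 in the alpha-type lines and from Hbb-bs in the beta-type lines.
Hba-x: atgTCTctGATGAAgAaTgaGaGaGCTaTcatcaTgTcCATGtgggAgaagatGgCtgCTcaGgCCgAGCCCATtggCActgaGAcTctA
Hba-a1: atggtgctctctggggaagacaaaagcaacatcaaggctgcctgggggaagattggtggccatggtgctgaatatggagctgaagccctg
Hba-a2: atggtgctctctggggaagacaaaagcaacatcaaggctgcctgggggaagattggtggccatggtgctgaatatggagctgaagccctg
Hbb-y: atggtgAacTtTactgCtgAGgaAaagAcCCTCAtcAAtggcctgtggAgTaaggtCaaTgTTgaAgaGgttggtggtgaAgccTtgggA
Hbb-bh1: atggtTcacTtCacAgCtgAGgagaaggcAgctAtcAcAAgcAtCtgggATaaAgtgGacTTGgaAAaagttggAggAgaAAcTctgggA
Hbb-bs: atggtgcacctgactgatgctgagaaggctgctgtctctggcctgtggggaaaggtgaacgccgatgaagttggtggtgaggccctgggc
Hbb-bt: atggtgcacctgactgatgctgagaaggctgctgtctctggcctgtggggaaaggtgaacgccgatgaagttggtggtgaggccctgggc

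In this stretch Hba-x differs from Hba-a1 at 44 bases, Hbb-y from Hbb-bs at 26 and Hbb-bh1 from Hbb-bs at 29, whereas the adult copies are identical within each pair. Over the whole coding sequence of 429 bases, Hba-a1 and Hba-a2 differ at 1 base, C381T, counted from the A of the ATG with the Hba-a1 base first. Hbb-bs and Hbb-bt, at 444 coding bases, also differ at 1 base, C417T, with the Hbb-bs base first. Hba-x shares 62.0% of its coding bases with Hba-a1, and Hbb-y and Hbb-bh1 share 76.4% with each other.

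These sequences bear on the counts. Of the 50-base stretches of its transcript, Hba-a1 shares 67.5% with Hba-a2, and Hba-a2 shares 86.9% with Hba-a1. Hbb-bs shares 65.8% with Hbb-bt and Hbb-bt 58.3% with Hbb-bs, while the 3 embryonic globins share none of theirs with the transcripts of any other gene. Reads that map to more than 1 place were not counted, per the options in the file headers, so the adult globins can be counted only from the remaining stretches and their levels are understated by an amount that depends on read length. For that reason a difference between Hba-a1 and Hba-a2, or between Hbb-bs and Hbb-bt, is uncertain. No span of the 7 genes overlaps another annotated gene in the tables, so the lack of a strand option did not mix them with a neighbour.

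On mm10 the alpha-type genes lie on the plus strand of chromosome 11 in the order Hba-x (32276600 to 32278116), Hba-a1 (32283672 to 32284486) and Hba-a2 (32296492 to 32297310). The beta-type genes lie on the minus strand of chromosome 7, and in the direction of transcription their order is Hbb-y (103851754 to 103853207), Hbb-bh1 (103841638 to 103843162), Hbb-bs (103826523 to 103827928) and Hbb-bt (103812524 to 103813923). In both clusters the embryonic genes come first. The deposited exon lengths of Hbb-y and Hbb-bh1, 1221 and 1224 bases, add exons of an alternate contig to those of chromosome 7, which alone are 619 and 610 bases. The chromosome lengths were used for every value per kb below.

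Promoters of an embryonic and an adult-type gene of each cluster are shown as background, and their part in the CCCP values was not tested. RefSeq windows (GRCm38.p6) were found for 6 of the 7 members, and the 120 bases before the annotated start are given 5′ to 3′ on the strand of the gene, with capitals for the short words searched on both strands.
Hba-x, chr11:32276480-32276599, plus strand: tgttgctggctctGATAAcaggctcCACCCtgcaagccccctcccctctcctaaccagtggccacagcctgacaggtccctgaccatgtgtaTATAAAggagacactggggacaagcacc
Hba-a1, chr11:32283552-32283671, plus strand: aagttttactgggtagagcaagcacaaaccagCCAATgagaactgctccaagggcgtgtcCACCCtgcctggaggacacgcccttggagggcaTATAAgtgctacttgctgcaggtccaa
Hbb-y, chr7:103853208-103853327, minus strand: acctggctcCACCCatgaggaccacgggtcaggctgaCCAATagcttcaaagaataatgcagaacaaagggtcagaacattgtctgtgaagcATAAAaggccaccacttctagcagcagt
Hbb-bs, chr7:103827929-103828048, minus strand: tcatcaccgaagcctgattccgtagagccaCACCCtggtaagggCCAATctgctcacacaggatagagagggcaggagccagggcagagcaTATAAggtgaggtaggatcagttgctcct

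The words searched were CACCC, the box read by Krüppel-like factors such as Klf1, then the CCAAT box, and GATAA, the core read by the GATA family. The TATA box was searched as TATAA and, for its later letters, as ATAAA, and these can overlap. CACCC was present in 6 of the 6 windows, against 31.7% of 32851 windows of the same length in the table. CCAAT was present in 5 of 6 (all but Hba-x), against 21.3%, and TATAA in 5 of 6 (all but Hbb-y), against 11.8%. GATAA was found in Hba-x alone, against 3449 of the 32851 windows, and ATAAA in Hba-x, Hbb-y and Hbb-bt, against 20.2%. The windows of Hba-a1 and Hba-a2 are the same sequence shifted by a few bases, so the 6 windows are not independent. A match is a word in the sequence, not a measured binding site.

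Levels were compared between genes as CPM per kb of exon. In the untreated libraries Hbb-y, the main beta-type chain of late primitive cells, was the most abundant at 2460 ± 274 CPM per kb (SD, n = 2). Hbb-bh1 followed at 1029 ± 487 CPM per kb, Hba-x at 628 ± 15.2 and Hba-a1 at 520 ± 58.6. The other adult copies were lower, with Hba-a2 at 83.4 ± 35.6 CPM per kb, Hbb-bs at 49.5 ± 17.8 and Hbb-bt at 37.04 ± 26.3. Hbb-bh1 and Hba-x differed by less than the SD of Hbb-bh1, and the libraries of Hba-a2 and Hbb-bs overlapped, as did those of Hbb-bs and Hbb-bt. The order was the same in the CCCP libraries, from 3061 ± 756 CPM per kb for Hbb-y to 41.4 ± 7.65 for Hbb-bt, where the libraries of Hbb-bh1, Hba-x and Hba-a1 overlapped in neighbouring pairs and those of Hbb-bs and Hbb-bt overlapped too. This order rests on full exon length. Per 1000 starts of 50-base stretches found in no other gene, a measure chosen after seeing the data, untreated Hbb-y was still first at 2607 ± 290.3 CPM (SD, n = 2), but Hba-a1 (1377 ± 155) came before Hbb-bh1 (1112 ± 526), and Hba-a2 (712 ± 303) before Hba-x (502 ± 12.2). The starts were taken from GENCODE transcripts, whereas the counts are over RefSeq exons, and the lengths differ. Hba-x has 752 starts but 601 exon bases. Hba-a1 has 650 starts, shared ones included, but 559 exon bases. This measure can understate both, so the order is uncertain.

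Pairs of values below give replicate 1 before replicate 2. Among the embryonic globins, Hba-x, the zeta chain, had 371 and 384 CPM in untreated replicates 1 and 2 and 448 and 715 CPM in CCCP replicates 1 and 2. Both CCCP libraries were above both untreated ones, and CCCP replicate 2 stood well above CCCP replicate 1. Hbb-y stood at 1403 and 1643 CPM without CCCP and at 1564 and 2225 CPM with it. Its groups overlapped, with only CCCP replicate 2 above the rest. Hbb-bh1, the earliest beta-type chain, stood at 417 and 837 CPM without CCCP and at 453 and 1446 CPM with it. Replicate 2 was the higher library in each group, and the groups overlapped.

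**Figure D1:**
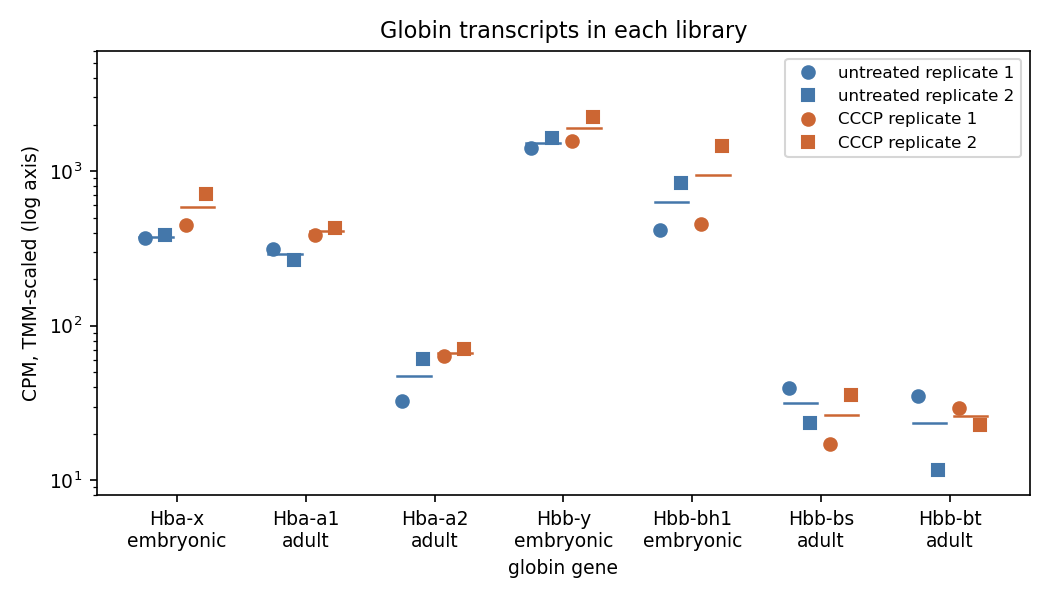
TMM-scaled CPM (log axis) of the 7 globin genes in each library, with circles for replicate 1, squares for replicate 2 and short lines for group means (n = 2). The alpha-type genes Hba-x, Hba-a1 and Hba-a2 have both CCCP libraries above both untreated libraries, while Hbb-bh1 runs from 417 to 1446 CPM and is split by replicate number within each group.

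Among the adult-type globins, Hba-a1 stood at 314 and 267 CPM without CCCP and at 385 and 431 CPM with it. Hba-a2, the near-identical alpha copy, stood at 32.8 and 61.1 CPM without CCCP and at 63.9 and 70.3 CPM with it. The groups of both alpha copies did not overlap, though for Hba-a2 untreated replicate 2 came close to CCCP replicate 1. Hbb-bs, an adult beta chain, stood at 39.7 and 23.6 CPM without CCCP and at 17.1 and 35.9 CPM with it. Hbb-bt, its near-identical neighbour, stood at 35.04 and 11.6 CPM without CCCP and at 29.5 and 22.7 CPM with it. The adult beta chains overlapped between the groups, with untreated replicate 1 the highest library for both.

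In the test across all genes the log2 fold change of CCCP over untreated was 0.62 (SE 0.230) for Hba-x, 0.49 (SE 0.144) for Hba-a1 and 0.52 (SE 0.280) for Hba-a2. It was 0.32 (SE 0.215) for Hbb-y and 0.60 (SE 0.564) for Hbb-bh1, and among the adult beta chains -0.26 (SE 0.391) for Hbb-bs and 0.16 (SE 0.475) for Hbb-bt. By the quasi-likelihood test of edgeR, Benjamini-Hochberg adjusted p-values ran from 0.255 for Hba-a1 to 0.898 for Hbb-bt, so 0 of 7 globins passed the threshold of 0.05. The background was 0.00% of 19837 genes, with 2899 genes (14.6%) at an unadjusted p under 0.05. DESeq2 called 594 genes (3.32%, and 0.329% as higher) but no globin, with the smallest adjusted p-value of the 7 at 0.0748. Of the 7 globins, 2 (Hba-x and Hba-a1) were higher at an unadjusted p under 0.05, against 5.45% of all genes tested. Both CCCP libraries lay above both untreated ones for 3 of the 7, against 24.0% of all genes, and below them for 0 of the 7, against 24.8%. In either direction that is 3 of 7 without overlap, against 48.8%. The median log2 fold change of the 7 was 0.49 and that of all genes tested -0.01.

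A few limits touch these values. Log2 fold changes in these libraries went with exon length, and the 207 tested genes with exon lengths of 559 to 639 bases, the range of the globins, had a median of 0.20. With the length trend of each library removed, the values were 0.37 for Hba-x, 0.23 for Hba-a1, 0.31 for Hba-a2, 0.074 for Hbb-y, 0.36 for Hbb-bh1, -0.56 for Hbb-bs and -0.13 for Hbb-bt, so Hbb-bt changed sign and the smallest adjusted p-value of edgeR was 0.483. When every gene with at least 1 count was tested, edgeR called 4 globins higher, Hba-x, Hba-a1, Hba-a2 and Hbb-bh1, with adjusted p-values from 0.00218 to 0.0321, against 0.673% of 32261 genes called higher and 3.43% called in either direction. In that fit the SE was 0.152 for Hba-x, 0.151 for Hba-a1, 0.157 for Hba-a2 and 0.153 for Hbb-bh1. With the filter it was 0.230, 0.144, 0.280 and 0.564 for the same genes, and the groups of Hbb-bh1 overlapped. The cause of these calls was not tested.

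Single libraries moved several of the values. Without CCCP replicate 2 the log2 fold change was 0.26 for Hba-x, 0.047 for Hbb-y and -0.46 for Hbb-bh1, and without CCCP replicate 1 it was 0.93, 0.55 and 1.21 for the same genes. Leaving out untreated replicate 1 gave 0.19 for Hbb-bh1, and leaving out untreated replicate 2 gave 1.21. Hba-a2 went from 0.14 to 1.06 between those same omissions. Hba-a1 varied least, between 0.41 and 0.62. Hbb-bs was 0.17 without untreated replicate 1 and -0.88 without CCCP replicate 2, and Hbb-bt went from 1.18 to -0.39 between the omissions of untreated replicates 1 and 2. The alpha-type genes and Hbb-y thus stayed above 0 whichever library was left out, and the other 3 beta-type genes did not. For the alpha-type genes this follows from the lack of overlap between their groups, so it adds nothing on their stability.

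**Figure D2:**
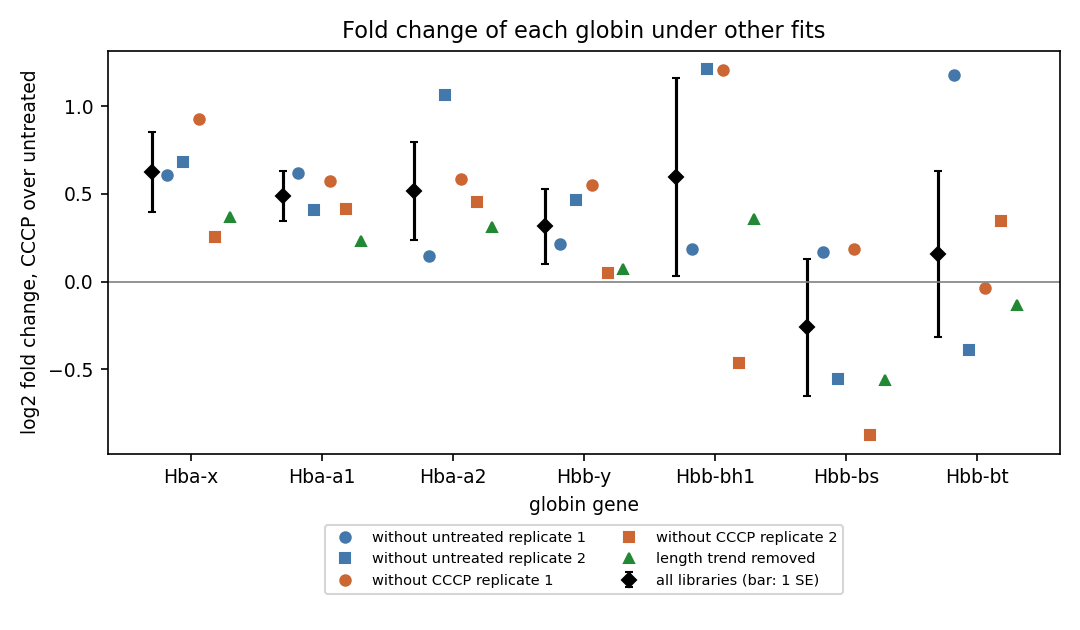
Log2 fold change of each globin, CCCP over untreated, from all libraries (diamonds, bars of 1 SE), with each library left out in turn (circles and squares) and with the exon length trend removed (triangles). The alpha-type genes stay above 0 in each of these fits, from 0.14 to 1.06, while Hbb-bh1, Hbb-bs and Hbb-bt fall on both sides of 0 when 1 library is left out. With 1 library left out, the sign of the alpha-type genes follows from the lack of overlap between their groups.

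Summed over the 7 genes, globin transcripts had 2612 and 3227 CPM in untreated replicates 1 and 2 and 2960 and 4946 CPM in CCCP replicates 1 and 2. The groups overlapped, and the difference of 0.40 on the log2 scale was no larger than the spread between replicates (pooled SD 0.40; two-sided exact permutation test, p = 0.667). The embryonic sum stood at 2191 and 2864 CPM without CCCP and at 2464 and 4386 CPM with it, a log2 difference of 0.39 with a pooled SD of 0.46 (exact permutation p = 0.667) that was -0.024 without CCCP replicate 2. The adult sum stood at 421 and 364 CPM without CCCP and at 495 and 559 CPM with it. It was higher in 2 of 2 CCCP libraries, by 0.43 on the log2 scale with a pooled SD of 0.14, and the two-sided exact permutation p of 0.33 is the smallest that 2 against 2 libraries allow. That sum rests on the alpha copies: the adult beta chains Hbb-bs and Hbb-bt alone gave a log2 difference of 0.026.

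The embryonic chains made up 82.9% and 87.9% of globin counts per kb in untreated replicates 1 and 2 and 82.1% and 87.9% in CCCP replicates 1 and 2. The group means were 85.4% ± 3.55 and 85.0% ± 4.09 (SD, n = 2), a difference of -0.40 percentage points with a pooled SD of 3.83 (two-sided exact permutation test, p = 0.667), and it ran from -3.29 to 2.49 points when 1 library was left out. As a share of raw counts, the embryonic part was 83.9% in untreated replicate 1, with a 95% Clopper-Pearson interval of 83.7% to 84.1%, so counting error was far smaller than the spread between replicates. Intervals cover counting error only, since reads without molecular identifiers are not independent molecules. Divided by the number of 50-base stretches found in no other gene, a measure chosen after seeing the data, the mean embryonic share was 64.1% in untreated and 63.1% in CCCP libraries. The mismatch between GENCODE stretches and RefSeq exons touches this share too.

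The clusters differed in their embryonic share. Of the beta-type counts per kb, Hbb-y and Hbb-bh1 held 96.2% and 98.6% without CCCP and 97.8% and 98.5% with it. Of the alpha-type counts per kb, Hba-x held 49.9% and 52.1% without CCCP and 48.2% and 57.1% with it. With unique stretches in place of exon length, the mean share of Hba-x was 19.4% in untreated libraries and that of Hbb-y and Hbb-bh1 among beta-type counts was 93.4%. The GENCODE transcripts of both Hba-x and Hba-a1 are longer than their counted exons, so that measure can misstate the share of Hba-x in either direction. The groups overlapped for the alpha-type and the beta-type share (two-sided exact permutation test, p = 1 for each).

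**Figure D3:**
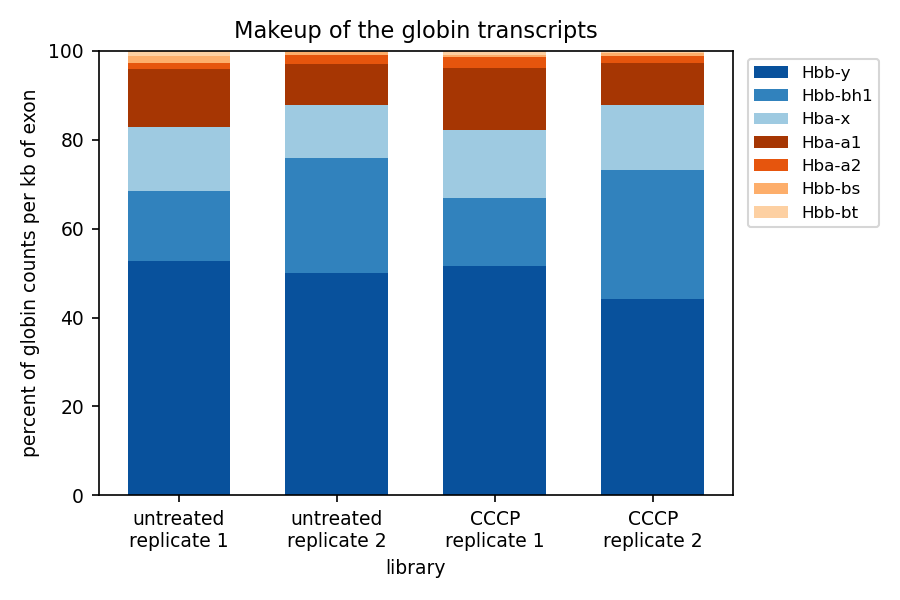
Share of each gene in the summed globin counts per kb of exon, 1 bar per library, with embryonic genes in blue and adult-type genes in orange. The embryonic part is 82.1% to 87.9% in the 4 libraries and is higher in replicate 2 of both groups, where the segment of Hbb-bh1 is wider.

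Ratios within a library do not depend on library scaling, and in both groups they differed between the replicate numbers. Hbb-bh1 over Hbb-y, per kb, was 0.302 in untreated replicate 1 and 0.294 in CCCP replicate 1, against 0.517 in untreated replicate 2 and 0.659 in CCCP replicate 2. Replicate 2 was thus above replicate 1 by 0.78 and 1.17 on the log2 scale in the untreated and CCCP groups, whereas the groups differed by 0.16 with a pooled SD of 0.70 (two-sided exact permutation test, p = 1). Alpha-type over beta-type counts per kb was 0.403 and 0.463 in the libraries numbered 1 and 0.30 and 0.344 in those numbered 2. Replicate 2 minus replicate 1 was -0.42 and -0.43 on the log2 scale, and the groups differed by 0.20 with a pooled SD of 0.30 (exact permutation p = 0.667). Within each number the CCCP library had the higher alpha-type to beta-type ratio. No label says what a number marks.

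Over all tested genes, 2.76% were at least 1.5-fold higher and 6.29% at least 1.5-fold lower in replicate 2 than in replicate 1 in both groups. Among the 7 globins 1 was past that fold, Hbb-bh1, which was 2.01-fold and 3.19-fold higher in replicate 2 of the untreated and CCCP groups. Among 20 regulators of globin and red cell genes, 2 were, and both were singled out after their values were seen. Lin28b, an RNA-binding protein of fetal blood cells, had 18.9 and 40.9 CPM in untreated replicates 1 and 2 and 13.6 and 26.1 CPM in CCCP replicates 1 and 2. Nfix, a nuclear factor I protein, went the other way, with 43.4 and 11.1 CPM without CCCP and 26.6 and 10.1 CPM with it. The part of embryonic age or any other difference between the numbers was not tested.

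**Figure D4:**
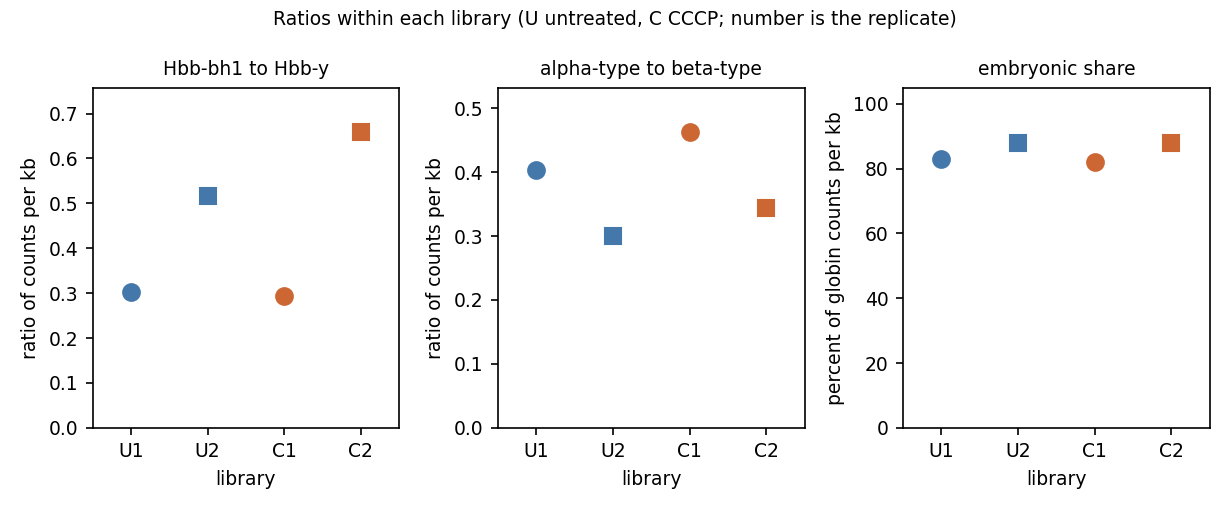
Ratio of Hbb-bh1 to Hbb-y, ratio of alpha-type to beta-type globins (both of counts per kb of exon) and embryonic share of globin counts per kb, in each library (U untreated, C CCCP, with the replicate number). Squares (replicate 2) lie above circles (replicate 1) in the outer panels and below them in the middle panel, in both groups.

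Partners of globin in the red cell, which make haem, take up iron or build the membrane, lay on both sides of 0. Of the 14 listed genes used here 0 passed in edgeR, 7 had a log2 fold change above 0 and 7 below, and the median was 0.01. Alas2, the erythroid enzyme that starts haem synthesis, stood at 39.4 and 46.5 CPM without CCCP and at 51.9 and 78.8 CPM with it, a log2 fold change of 0.60. Fech, which inserts iron into haem as its final step, stood at 39.7 and 40.9 CPM without CCCP and at 42.6 and 57.7 CPM with it, a log2 fold change of 0.31. Without CCCP replicate 2 these were 0.28 for Alas2 and 0.090 for Fech.

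Tfrc and Epor had values below 0. Tfrc, the transferrin receptor that takes up iron, stood at 109 and 142 CPM without CCCP and at 66.6 and 106 CPM with it, a log2 fold change of -0.54. Epor, the erythropoietin receptor, stood at 5.35 and 4.87 CPM without CCCP and at 2.53 and 4.30 CPM with it, a log2 fold change of -0.59. Without CCCP replicate 1 these were -0.23 for Tfrc and -0.24 for Epor. Adjusted p-values of edgeR for these 4 genes were between 0.304 and 0.454. Of the 14 partners 2 were higher and 2 lower with no overlap between the groups, against 48.8% of all genes in either direction. When every gene with at least 1 count was tested, edgeR called Alas2 and Slc4a1, the red cell anion exchanger, higher and Tfrc lower (adjusted p 0.00651, 0.00982 and 0.0192). Over all genes, that fit called 3.43% in either direction. The 9 erythroid markers summed to 176 and 149 CPM without CCCP and 157 and 266 CPM with it, so CCCP replicate 2, the library with the most globin, also had the most of these markers. Their summed level differed by 0.34 on the log2 scale between the groups, beside 0.40 for the summed globins. Taken singly, 5 of the 9 markers had a log2 fold change above 0 and 4 below, with a median of 0.04. In CCCP replicate 2 Slc4a1 held 107 CPM and Alas2 78.8 CPM of that sum. The summed level of the 14 partners, which share genes with the markers, differed by 0.01. The part of red cell content in the globin values was not tested.

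Regulators of globin transcription also lay on both sides of 0. Of 20 tested, 0 passed in edgeR, 11 had a log2 fold change above 0 and 9 below, with a median of 0.02. Sox6, a repressor of Hbb-y in definitive cells, stood at 46.2 and 39.2 CPM without CCCP and at 31.3 and 33.1 CPM with it, a log2 fold change of -0.41. Zfpm1, the GATA1 cofactor FOG1, stood at 30.0 and 34.2 CPM without CCCP and at 36.03 and 50.2 CPM with it, a log2 fold change of 0.43. Nr2c2, an orphan receptor of the complex that represses embryonic beta-type genes, had a log2 fold change of -0.33, and Ldb1, which bridges the globin enhancer and promoter, had 0.17. Their adjusted p-values in edgeR were between 0.287 and 0.525. Of the 20 regulators 4 were higher and 2 lower with no overlap, against 48.8% of all genes in either direction. With the length trend removed, Sox6 changed sign to 0.25 and Nr2c2 was at -0.10, while Zfpm1 was at 0.45 and Ldb1 at 0.33. Klf1, the erythroid factor of the CACCC box, overlapped between the groups with 4.16 and 4.14 CPM without CCCP and 2.88 and 5.35 CPM with it. Bcl11a, known for silencing embryonic beta-type genes, had a log2 fold change of -0.16, which was 0.16 with the length trend removed and 0.16 without untreated replicate 1, and its groups overlapped.

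**Figure D5:**
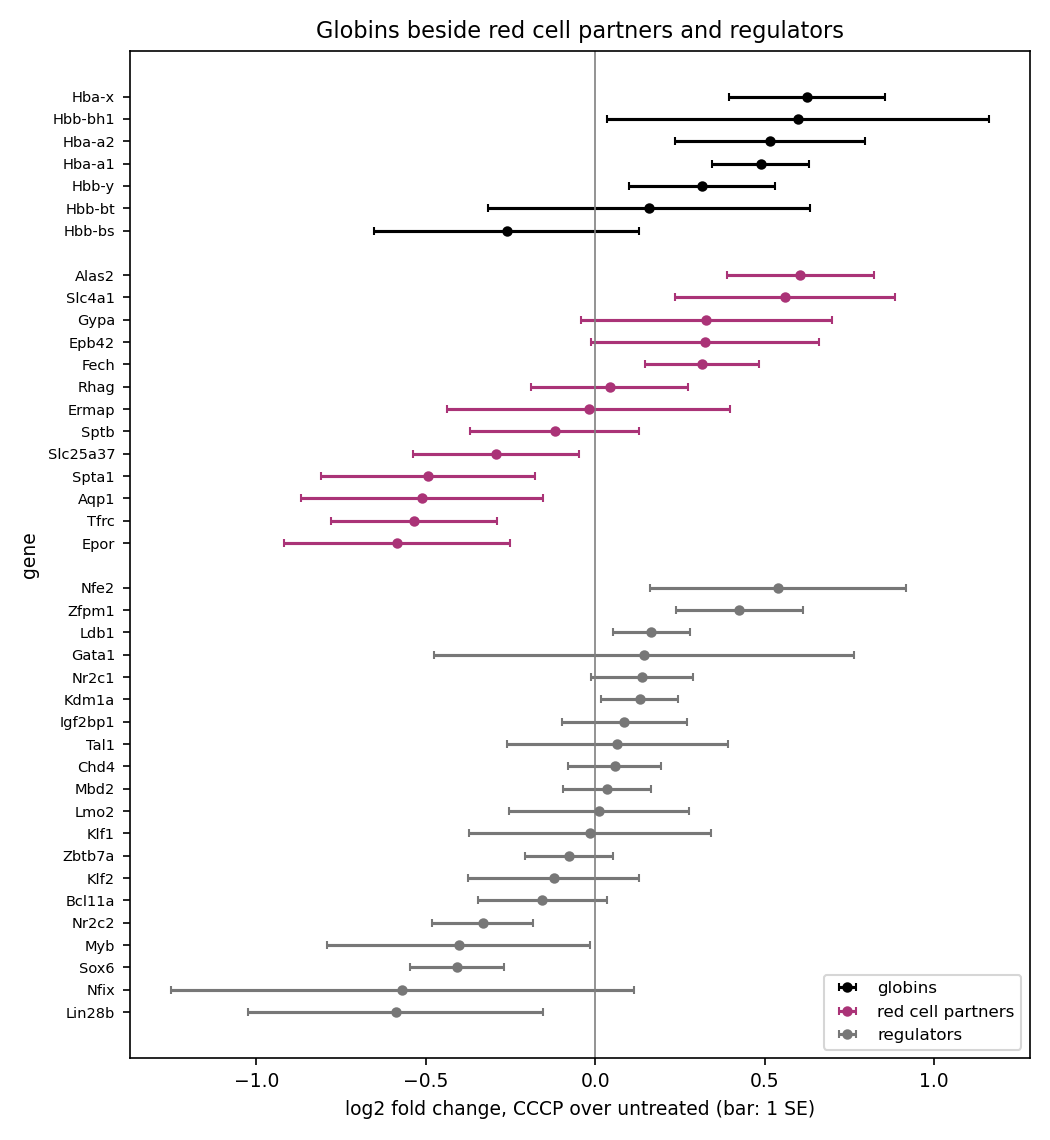
Log2 fold change, CCCP over untreated, with bars of 1 SE, for the 7 globins, the red cell partners shown and 20 regulators. Alas2 lies at 0.60, near Hba-x at 0.62, while Tfrc and Epor lie at -0.54 and -0.59, and none of the genes shown passed the adjusted test.

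Other members of the globin family were nearly silent beside these. Of 10 listed, 3 passed the filter and 0 of the 3 passed the test in edgeR. Hbq1b, a theta globin that lies between the alpha copies, stood at 1.68 and 1.28 CPM without CCCP and at 1.87 and 2.70 CPM with it. Mb, the muscle myoglobin, stood at 0.919 and 0.535 CPM without CCCP and at 1.11 and 0.937 CPM with it, and Cygb, the cytoglobin of fibroblast-like cells, stood at 9.89 and 6.74 CPM without CCCP and at 9.02 and 5.15 CPM with it. Hbb-bh2, an annotated gene downstream of Hbb-bh1, had 4, 3, 0 and 17 counts in the order untreated replicates 1 and 2 and CCCP replicates 1 and 2. Rows for Hbb-b1 and Hbb-b2, the adult genes of another mouse haplotype that the tables place on an alternate contig, had 0 counts in all 4 libraries.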

How the data were processed

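Per the file headers, the authors ran featureCounts 2.0.3 on mm10 RefSeq exons, and the deposited values are unscaled counts per gene; the submitters' processing notes name HISAT2, SAMtools and Subread. Per the file headers, no option for strand, for multi-mapping reads or for counting pairs was set, so both reads of a pair count. Exon lengths in the deposited files were used except where alternate contigs added to them. The column header of untreated replicate 1 differs by a letter from its title, so samples were taken from the record of each file.

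Counts were tested with edgeR 4.0.16 (quasi-likelihood, TMM, filterByExpr with minimum count 10, group alone) in R 4.3.3, two-sided, with Benjamini-Hochberg adjustment over 19837 genes and a threshold of 0.05. SE is the log2 fold change divided by the square root of F. DESeq2 1.42.0, other scalings, no filter, a replicate block, a lowess length correction and leaving out each library were alternatives. Tests were checked on simulated counts with the same dispersion for every gene. That simulation held no replicate-number effect and no length trend, so the check does not cover either. Sums and shares used two-sided exact permutation tests. Members and lists were chosen with earlier results of these data known. Named genes were the 7 members, the 4 smallest p-values of each list and the 5 nearest genes in centred log2 CPM (prior count 2, mean CPM at least 10); Klf1, Bcl11a, Hbb-bh2, Hbb-b1, Hbb-b2, Lin28b, Nfix, Slc4a1, Fga and Ppbp were named after their values were seen. A gene that the rule named among the nearest is not reported here. A count of 3, the floor, equals 0.0614 to 0.0803 CPM before scaling.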

Additional observations from a re-analysis of the deposited data

How the results depend on the processing

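As reported, edgeR called 0 genes (2899 at an unadjusted p under 0.05). The number stayed at 0 with the size factors of DESeq2, with total counts alone, with the length trend removed and with globins left out of the library totals. It was 1107 without a filter beyond 1 count, 594 in DESeq2 and 10 to 46 with 1 library left out, where the lone library of a group is assumed to vary like the others. With the replicate block it was 2118, and 1569 with the replicate block and the length trend removed. Same-numbered libraries deviated together (correlation 0.36 over 19837 genes), but no label ties them and there are only 2 pairs, so no pairing was assumed. With that block edgeR called Hba-x, Hba-a1 and Hba-a2 higher (log2 fold changes 0.59, 0.49 and 0.58, edgeR adjusted p from 0.0214 to 0.0293, against 3.80% of genes called higher), and with the length trend removed as well it called no globin (smallest edgeR adjusted p 0.123). Of the 14 red cell partners the block called Alas2 higher and Tfrc lower (edgeR adjusted p 0.0108 and 0.00944), also with the length trend removed (0.0291 and 0.0123). Of the 20 regulators it called Lin28b lower, and with the length trend removed Zfpm1 and Ldb1 higher instead. Over all genes and in either direction, the block called 10.7%, and 7.91% with the length trend removed. The counts of partners and regulators are near these shares. Of the globins, edgeR called 3 of 7 with the block alone and 0 of 7 with the length trend removed as well. Leaving out 1 library gave a range of -0.46 to 1.21 for Hbb-bh1, -0.88 to 0.19 for Hbb-bs and -0.39 to 1.18 for Hbb-bt, and Hbb-bt was -0.13 with the length trend removed. The adult sum without the alpha copies had a log2 difference of 0.026. The levels of the shares depend on the length used: in untreated libraries the mean embryonic share was 85.4% per kb of exon, 77.3% with exon lengths as deposited and 64.1% per unique 50-base stretch, the last pair added after seeing the data. Unique stretches were taken from GENCODE transcripts, which do not match the RefSeq exons counted. The difference of that share between the groups was -0.24 points with deposited lengths and -1.01 points per unique stretch. Leaving out 1 of 2 libraries cannot move a difference by more than the pooled SD, so it says nothing of their stability. Depth does not limit the globins, whose lowest count was 435; the number of libraries and reads shared by the adult copies do.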

Other observations

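Markers of other blood lineages are given here as values. All 8 megakaryocyte and platelet markers had a log2 fold change below 0, against 10086 of the 19837 genes tested, and their median was -0.56. Of the 8 markers 2 were lower with no overlap between the groups, against 24.8% of all genes. None passed the adjusted test in edgeR as reported. Of the 8, edgeR called Ppbp lower when every gene with at least 1 count was tested (adjusted p 0.00959), with the replicate block (0.0153) and with that block and the length trend removed (0.0126). In the same order, these fits called 3.43%, 10.7% and 7.91% of all genes in either direction. Ppbp, a platelet chemokine, had 4.43 and 4.06 CPM in untreated replicates 1 and 2 and 1.09 and 2.10 CPM in CCCP replicates 1 and 2. Their summed level was 76.6 and 54.3 CPM without CCCP and 30.6 and 61.3 CPM with it, so the groups overlapped in the sum. Of 10 macrophage markers 6 were above 0 and 4 below, with a median of 0.15, and 3 were higher and 1 lower with no overlap, against 24.0% and 24.8% of all genes. Their summed level was 217 and 154 CPM without CCCP and 218 and 223 CPM with it.

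Genes near to the summed embryonic globins in their centred log2 CPM over the 4 libraries, among 10780 candidates, were Rps19-ps6 (distance 0.070), Gm10221 (0.12), Zbtb7b (0.13) and Gm5805 (0.13), beside a median distance of 0.75. The 5 nearest to the summed adult globins were Mroh1 (0.055), Nkd2 (0.058), Fhl3 (0.062), Lgals1 (0.064) and Itgb4 (0.064), beside a median of 0.51. With 4 libraries a small distance is a description of these samples.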
